A study of Mus musculus with 15 samples.

Results

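Cytosolic heat shock proteins and chaperonins were followed as a set of 34 genes, chosen by symbol from a fixed list and all found among the 22524 gene identifiers of each count table. All 34 passed the filter on low counts, with the lowest count in any library at 25 for Hspb1. RNA was sequenced from 15 female C57BL/6 mice aged 18 months, 7 heterozygous for Rps9 D95N with 1 wild-type Rps9 allele and 8 littermates with Rps9 WT on both alleles. Rps9 belongs to the small subunit of the ribosome, and the study's title concerns error-prone protein synthesis. Libraries are named here by genotype and animal number.

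Brain cortex is the tissue named in the series design, while skeletal muscle stands in the samples' tissue field. Summed over 8 neuronal markers the libraries held 7485 to 9150 CPM (the usual depth-scaled count unit, here with TMM factors), against 7.26 to 30.8 CPM over 8 muscle markers, highest in WT 19. Total counts ran from 23349381 to 34587082 per library. Rps9 itself averaged 65.3 CPM in wild type (SD 3.02, n = 8) against 63.1 in D95N (SD 6.13, n = 7), and a gene count cannot show the substitution. On the first principal component of all genes, D95N 42 at 13.9 lay among the wild-type libraries (10.6 to 19.4), while the other D95N libraries lay from -32.5 to -4.89. In bulk tissue, fewer cells of a type and less RNA per cell cannot be told apart.

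As background, cytosolic chaperones hold unfolded or newly made proteins and help them fold. Hsp70 proteins bind short exposed stretches, J-domain proteins bring them clients and stimulate their ATPase, and Hsp110 proteins reset them by nucleotide exchange. Hsp90 and its co-chaperones finish many kinases and steroid receptors, small heat shock proteins hold aggregation-prone chains, and the ring-shaped chaperonin TRiC folds actin and tubulin. When unfolded protein accumulates, heat shock factor 1 (HSF1) is released and switches on inducible members, such as Hspa1a, Hspa1b, Hsph1, Dnajb1, Hspb1 and Bag3. Neurons are known for a weak induction of this response.

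Of the 34 members 6 were higher in D95N and none lower (edgeR quasi-likelihood test, adjusted p under 0.05), 17.6% of the members. Over all 14989 genes tested, 26.8% passed in either direction, 15.2% higher and 11.6% lower. The members' share was thus lower than that of all genes over either direction and near it for genes higher in D95N, with no test of either difference. At an unadjusted p under 0.05 by edgeR, 8 of the 34 members were higher and 2 lower. Of all 14989 genes tested, 3121 were higher and 2861 lower at that threshold. No member was called lower by DESeq2, while limma-voom called 1. By edgeR, 1 was called lower with upper-quartile factors or with library totals, and 2 with a correction for GC content and length. Under oligodendrocyte, choroid plexus and striatum scores 1 was called lower. The median log2 fold change was 0.00 over the members and -0.01 over all genes tested. The 6 that rose were Hspb1 (1.51-fold), Hspa1b (1.49-fold), Dnajb5 (1.35-fold), Bag3 (1.23-fold), Hsph1 (1.18-fold) and Stip1 (1.09-fold). In no member did all 7 D95N libraries lie above or below all 8 wild-type libraries, a pattern found in 1.81% (above) and 1.47% (below) of genes tested.

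Those 6 calls differed in how well they held. Hspa1b and Stip1 were called in 27 of 28 alternative settings, Hsph1 and Dnajb5 in 26, Bag3 in 16 and Hspb1 in 9. The setting that ended every call put blood and meningeal scores in the fit, which left 0 members and 8 genes in all called (edgeR; median SE of all genes 0.113, against 0.065 without the scores). In that setting the log2 fold change was 0.29 for Hspa1b (adjusted p = 0.645 by edgeR) and 0.05 for Bag3 (adjusted p = 0.936 by edgeR), both smaller than without the scores. It was larger for the other 4, at 0.92 for Hspb1, 0.46 for Dnajb5, 0.36 for Hsph1 and 0.16 for Stip1, none of which passed (adjusted p = 0.225 to 0.381 by edgeR). All 8 blood markers and 4 of 8 meningeal markers fell. Blood marker sums were 37.3 to 149 CPM in D95N and 81.4 to 312 CPM in wild type, and meningeal sums 53.3 to 93.3 CPM and 79.4 to 122 CPM. Their part in the members' differences was not tested further. With a correction for GC content and length 10 members were higher and 2 lower, and 4 of the 10 were among the 6. Without WT 19 and WT 32, 3 of the 6 were called.

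**Figure D1:**
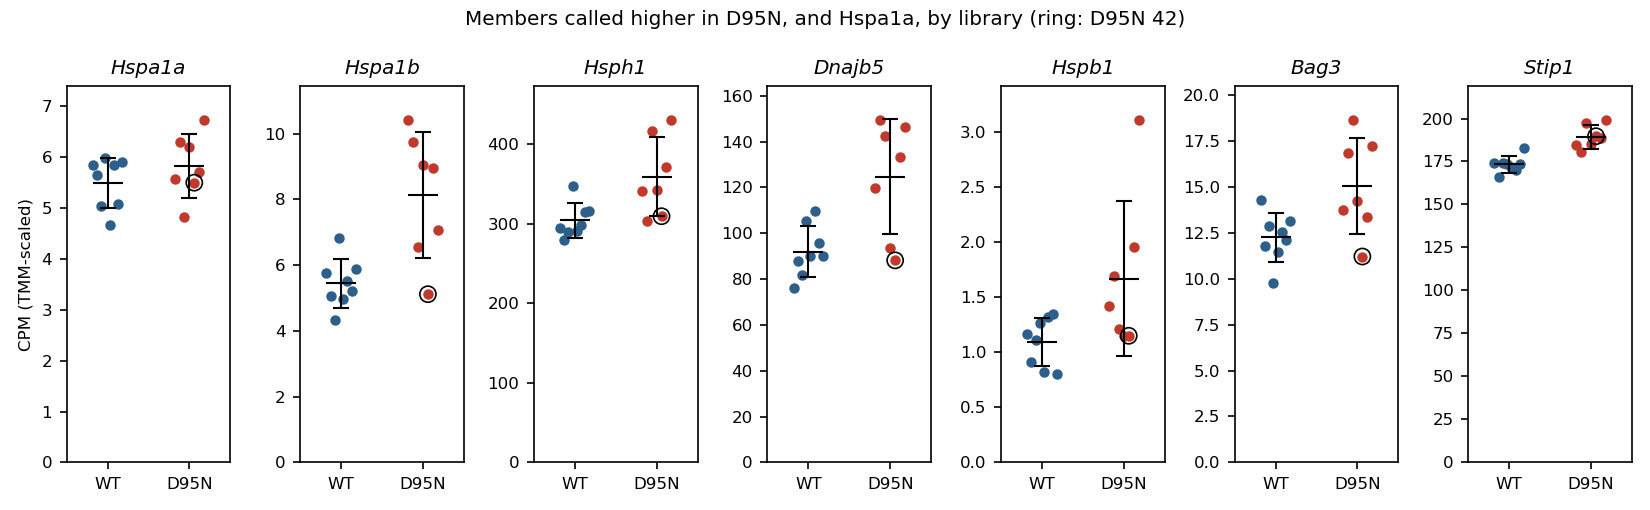
CPM in each library (points) with mean and SD (bars) in 8 wild-type and 7 D95N libraries, for the 6 members called higher and for Hspa1a, each panel from 0. In every panel some D95N libraries overlap the wild type, and D95N 42 (ring) lies above the wild-type range for Stip1 alone of these 7 genes.

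The Hsp70 and Hsp110 group held 8 members, of which 2 rose, Hspa1b and Hsph1. Hspa1b (ENSMUSG00000090877, chromosome 17, 34956436 to 34959238 of GRCm38) is a single-exon, stress-inducible Hsp70. Its values in wild type ran from 4.34 CPM through a median of 5.38 to 6.81 CPM, and in D95N from 5.12 through 8.94 to 10.4 CPM. Of the 7 D95N libraries 5 lay above the wild-type range, and D95N 4 at 6.55 CPM and D95N 42 at 5.12 CPM lay within it. Its log2 fold change of 0.58 had an SE of 0.13 (edgeR, adjusted p = 0.00503). Hspa1a (ENSMUSG00000091971, chromosome 17, 34969190 to 34972156), its neighbour and near-identical copy, ran from 4.67 through 5.74 to 5.98 CPM in wild type and from 4.83 through 5.70 to 6.73 CPM in D95N. These ranges overlapped widely, with a log2 fold change of 0.08 with SE 0.08 (adjusted p = 0.472 by edgeR; 95% interval -0.09 to 0.25).

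The copies were compared directly, a test chosen after their values were seen. Hspa1b took 49.7% ± 2.27 (SD, n = 8) of the reads assigned to either copy in wild type and 57.6% ± 5.92 (SD, n = 7) in D95N. The difference was 7.95 percentage points (exact permutation test over samples, two-sided, p = 0.00575), and 6.70 to 9.52 points leaving out 1 library. In D95N 21 the share reached 65.1%, while D95N 42 at 48.2% and D95N 50 at 51.2% fell among the wild-type shares of 46.3% to 53.3%. The reads behind each share were few, 137 to 298 for Hspa1b and 143 to 208 for Hspa1a per library. Of the 50-base words of their transcripts, 60.3% of Hspa1a and 62.3% of Hspa1b occur in another gene, so reads within those words cannot be placed by sequence and the split between copies is uncertain. Hspa1a also overlaps Gm20481 over 564 exonic bases on the opposite strand, and the strand setting is not given in the sources used here. A sum over both copies does not depend on how the counted reads were split between them. It does depend on whether reads matching both copies were counted, which is not given in the sources used here. Summed over both copies, wild type held 10.95 ± 1.16 CPM (SD, n = 8) and D95N 13.96 ± 2.18 CPM (SD, n = 7). This log2 difference of 0.34 passed an exact permutation test over the 6435 splits (two-sided, p = 0.00761), and D95N 42 at 10.6 and D95N 4 at 11.4 CPM fell among the wild-type values of 9.39 to 12.8 CPM.

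The stretches just upstream of these starts are shown because the reads assigned to the copies differ here and this sequence hardly does. As stated above, the split of reads between the copies is uncertain. Bases are from RefSeq's promoter table (GRCm38.p6), 5′ to 3′ on the gene's strand, ending 1 base before the start. Capitals mark a pair of inverted units of the kind HSF1 binds (heat shock units), GAANNTTC or TTCNNGAA. Such a pair was found for 17.0% of all genes with a RefSeq promoter entry, and a run of 3 units for 0.66%. The Hspa1a stretch is chr17:34972157-34972406 and the Hspa1b stretch chr17:34959239-34959488, both on the minus strand.
Hspa1a: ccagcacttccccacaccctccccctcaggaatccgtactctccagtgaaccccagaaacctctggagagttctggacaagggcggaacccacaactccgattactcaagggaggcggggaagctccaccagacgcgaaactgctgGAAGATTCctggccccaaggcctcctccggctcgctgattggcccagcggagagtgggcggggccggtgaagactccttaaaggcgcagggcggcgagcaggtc
Hspa1b: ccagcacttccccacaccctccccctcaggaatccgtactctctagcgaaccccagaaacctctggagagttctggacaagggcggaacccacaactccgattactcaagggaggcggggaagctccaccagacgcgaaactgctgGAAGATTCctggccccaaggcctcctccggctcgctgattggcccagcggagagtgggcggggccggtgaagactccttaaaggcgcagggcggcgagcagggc
The stretches match at 247 of 250 bases (98.8%), and both hold the same pair 104 bases before the start. Counted from the first printed base, the differences from Hspa1a to Hspa1b are C44T, T47C and T249G, all outside the pair.

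Hsph1 (ENSMUSG00000029657, chromosome 5, 149614287 to 149636376) is an inducible Hsp110. It was 280.0 through 296.5 to 348 CPM in wild type and 303 through 343 to 430 CPM in D95N. Its D95N libraries 4, 44 and 50 lay above every wild-type library and the other 4 within the range, whose top was WT 24. The log2 fold change was 0.24 with SE 0.07 (adjusted p = 0.0199 by edgeR), and 0.22 without WT 19 and WT 32 (edgeR, adjusted p = 0.0647). Hspa4 and Hspa4l, the other cytosolic Hsp110 genes, had log2 fold changes of 0.00 with 95% intervals of -0.09 to 0.09 and -0.11 to 0.11. Hspa4 was 254.5 CPM in D95N 28 and 326 CPM in D95N 4, against 284 to 305 CPM in wild type. Hspa8, the abundant constitutive Hsp70 that uncoats clathrin at synapses, was 186 to 218 CPM in wild type and 205 to 221 CPM in D95N, and all 7 D95N values lay above the wild-type median. Its log2 fold change of 0.07 (SE 0.03) missed the threshold (edgeR, adjusted p = 0.0997) and passed without WT 8 (0.09; edgeR, adjusted p = 0.0419), and 38.6% of its 50-base words occur in other genes, pseudogenes among them. Hspa8 also passed with the GC and length correction (0.09; edgeR, adjusted p = 0.0453).

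Hspa2 and Hspa12a had lower means in D95N without passing the test. Hspa2, an Hsp70 best known from the testis, was 41.2 to 50.3 CPM in wild type and 30.5 to 54.3 CPM in D95N, with 5 D95N libraries below the wild-type range and D95N 28 above it. The log2 fold change was -0.23 with SE 0.10 (adjusted p = 0.101 by edgeR), and -0.32 without D95N 28 (edgeR, adjusted p = 0.00978) and -0.28 without D95N 41 (edgeR, adjusted p = 0.0433). Hspa12a, a distant Hsp70 relative abundant in brain, was 260.0 to 286.5 CPM in wild type. In D95N 21, 4, 28, 50 and 44 it stood at 213 to 228.5 CPM, and in D95N 41 and 42 at 289 and 287.5 CPM, above the wild-type range. Its log2 fold change of -0.16 with SE 0.06 (adjusted p = 0.0652 by edgeR) passed with library totals (-0.20; edgeR, adjusted p = 0.0441) and without D95N 41 or D95N 42 (-0.21 each; edgeR, adjusted p = 0.0104 and 0.00805). Hspa12a also passed by limma-voom (-0.17, adjusted p = 0.0493), with upper-quartile factors (-0.19; edgeR, adjusted p = 0.0422) and with the GC and length correction (-0.19; edgeR, adjusted p = 0.0343). With oligodendrocyte, choroid plexus and striatum scores it was -0.25 (edgeR, adjusted p = 0.0043). With blood and meningeal scores it was 0.02 (edgeR, adjusted p = 0.962).

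Among 7 J-domain co-chaperones 1 rose. Dnajb5 (ENSMUSG00000036052, chromosome 4, 42949814 to 42959425), a class B J-domain protein, ran from 75.9 through 89.9 to 109.5 CPM in wild type and from 88.2 through 133 to 149 CPM in D95N. The 5 D95N libraries from 119.9 CPM upward lay above the wild type, and D95N 41 (93.3 CPM) and D95N 42 (88.2 CPM) lay within it. The log2 fold change was 0.44 with SE 0.11 (adjusted p = 0.00849 by edgeR), and 0.33 without the shallowest libraries, D95N 50 and 28, where it missed the threshold (edgeR, adjusted p = 0.0521). Of 12 rapid activity genes 6 rose and none fell, where 15.2% of all genes tested rose and 11.6% fell. Their sum was 433 to 1032 CPM in D95N and 245.5 to 617.5 CPM in wild type, highest in D95N 28 and WT 24. Dnajb5 was also highest in D95N 28, but among wild-type libraries in WT 32. The part of the rapid activity genes in the result for Dnajb5 was not tested.

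Dnajb1, the J-domain partner of inducible Hsp70 and a standard HSF1 target, was 59.5 to 68.5 CPM in wild type and 52.5 to 75.3 CPM in D95N. Its log2 fold change was -0.04 with SE 0.06 (adjusted p = 0.693 by edgeR), with D95N 28 above the wild-type range and D95N 21, 4 and 50 below it. The 95% interval, -0.16 to 0.09, leaves out a rise as large as that of Hspa1b. The other J-domain genes, Dnaja1, Dnaja2, Dnajb2 (a form enriched in neurons), Dnajb4 and Dnajb6 (a suppressor of polyglutamine aggregation), had log2 fold changes from -0.06 to 0.06. Dnaja2 was 210.2 to 225 CPM in wild type and 212 to 224 CPM in D95N, with no D95N library outside the wild-type range. Its log2 fold change passed with the GC and length correction alone (0.07; edgeR, adjusted p = 0.0353).

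**Figure D2:**
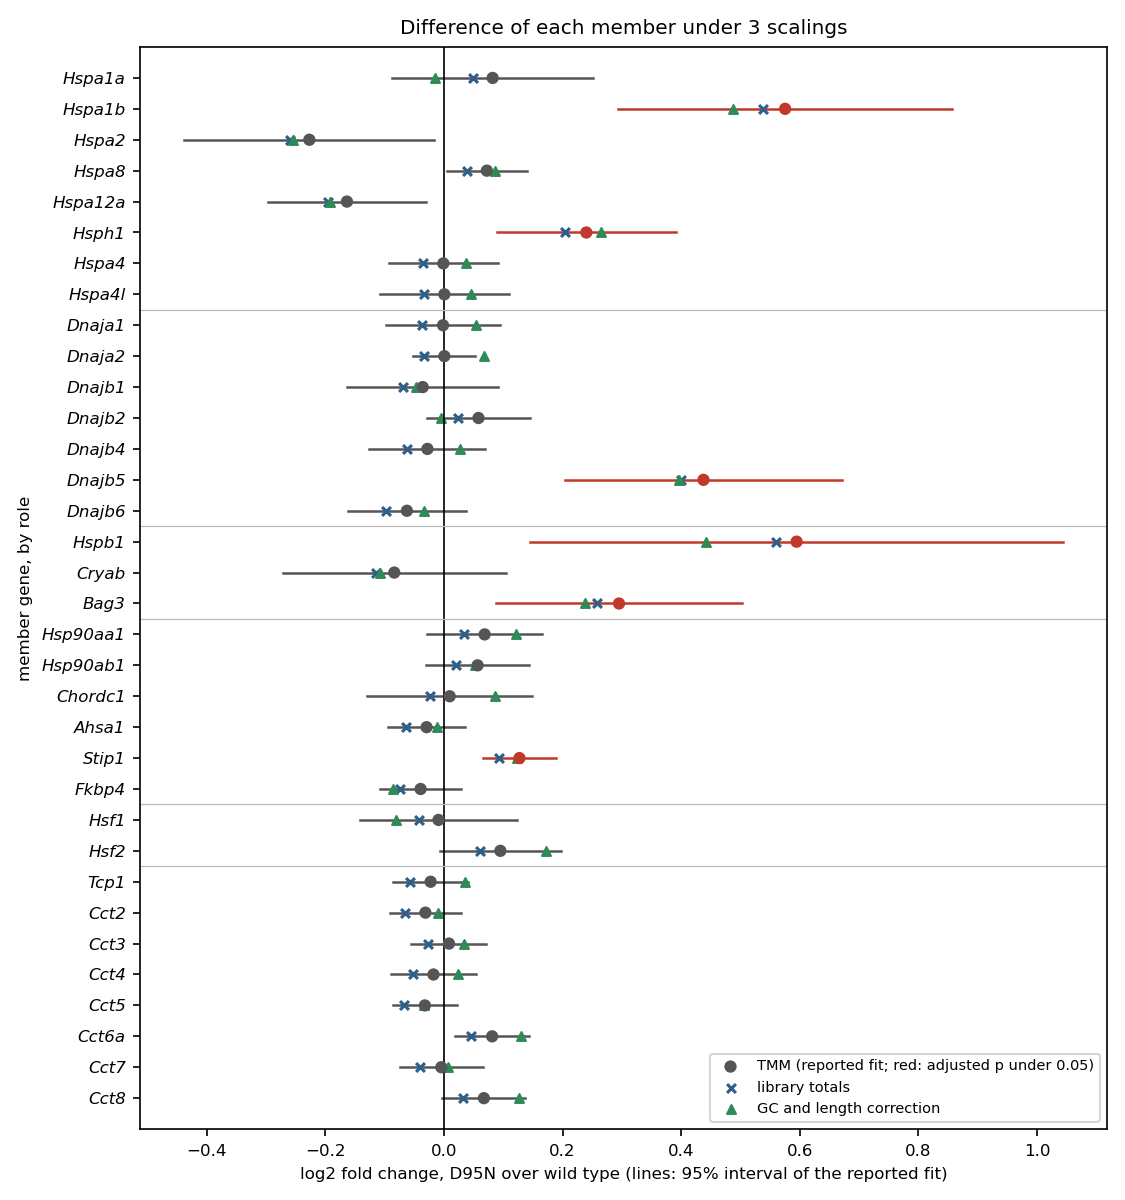
Log2 fold change of each member, D95N over wild type, with its 95% interval (points and lines, red where called), and the same under library totals (crosses) and a GC and length correction (triangles). The red intervals lie right of 0, as do those of Hspa8 and Cct6a, which were not called. Those of Hspa2 and Hspa12a lie left of 0, and most chaperonin subunits sit within 0.1 of 0.

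Of Hspb1, Cryab and Bag3, the small heat shock proteins and a partner, Hspb1 and Bag3 rose. Hspb1 (ENSMUSG00000004951, chromosome 5, 135887919 to 135889563), which holds unfolded chains and binds actin, was scarce, with 25 to 72 reads per library. It ran from 0.806 through 1.14 to 1.34 CPM in wild type and from 1.15 through 1.42 to 3.10 CPM in D95N. D95N 50 stood highest at 3.10 CPM, D95N 21, 28 and 44 also lay above the wild type, and D95N 4, 41 and 42 lay within it. The log2 fold change was 0.59 with SE 0.21 (adjusted p = 0.0475 by edgeR) and 0.38 without D95N 50 (edgeR, adjusted p = 0.114), and the call held in 5 of the 15 fits that each left out 1 library. Of 9 endothelial and mural markers 3 fell and none rose, with sums of 266.5 to 353 CPM in D95N and 276 to 386.5 CPM in wild type. Of 7 astrocyte markers Gfap rose (1.82-fold) and 3 fell. The part of these cells in the result was not tested. A pseudogene, Hsp25-ps1, shares 48.8% of the 50-base words of Hspb1.

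Upstream of Hspb1, at chr5:135887669-135887918 on the plus strand, the same source holds a pair of units at 117 and again at 97 bases before the start. The stretch is shown because it holds separate pairs before the start.
Hspb1: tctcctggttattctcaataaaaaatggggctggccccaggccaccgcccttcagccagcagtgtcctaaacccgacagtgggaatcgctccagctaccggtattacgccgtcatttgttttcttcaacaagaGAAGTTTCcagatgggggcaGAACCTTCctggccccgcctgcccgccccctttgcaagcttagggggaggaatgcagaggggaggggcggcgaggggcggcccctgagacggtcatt

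Cryab, the alpha-B crystallin of oligodendrocytes and astrocytes, did not pass. It was 66.9 to 88.8 CPM in wild type and 54.9 to 95.7 CPM in D95N, lowest in D95N 21 and highest in D95N 42, with a log2 fold change of -0.08 with SE 0.09 (adjusted p = 0.51 by edgeR). None of 7 oligodendrocyte markers passed the test, and their sum was 5682 to 7356 CPM in D95N and 6182 to 7569 CPM in wild type. Bag3 (ENSMUSG00000030847, chromosome 7, 128523616 to 128546981), which links Hsp70 and small heat shock proteins to selective autophagy, ran from 9.78 through 12.3 to 14.3 CPM in wild type and from 11.2 through 14.2 to 18.6 CPM in D95N. Only D95N 28, 4 and 50 lay above the wild type. The log2 fold change was 0.30 with SE 0.10 (adjusted p = 0.0352 by edgeR), and the call was lost without any 1 of D95N 4, 28 or 50 or WT 16, 24, 30 or 43 (adjusted p up to 0.0802).

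Of the 6 Hsp90 genes and co-chaperones 1 rose, by little but evenly. Stip1 (ENSMUSG00000024966, chromosome 19, 7020702 to 7039967), or HOP, hands clients from Hsp70 to Hsp90. It ran from 166 through 174 to 183 CPM in wild type and from 180.4 through 189 to 199 CPM in D95N. Of the D95N libraries 6 lay above the wild type, D95N 42 at 190 CPM among them, and D95N 28 at 180.4 CPM lay below WT 8 alone. The log2 fold change was 0.13 with SE 0.03 (adjusted p = 0.0045 by edgeR), from 0.115 to 0.139 leaving out 1 library, with adjusted p at most 0.0111. The 250 bases upstream of Stip1, chr19:7040027-7040276 on the minus strand, hold no such pair. They are shown because Stip1 was the steadiest call beside Hspa1b.
Stip1: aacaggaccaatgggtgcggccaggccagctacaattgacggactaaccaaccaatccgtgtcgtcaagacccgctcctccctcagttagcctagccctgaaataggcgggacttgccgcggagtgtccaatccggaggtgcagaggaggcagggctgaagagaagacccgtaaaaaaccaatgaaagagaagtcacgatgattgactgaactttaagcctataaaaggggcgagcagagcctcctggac

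Hsp90ab1, the constitutive Hsp90, was 1354 to 1483 CPM in wild type and 1331 to 1666 CPM in D95N, with D95N 4 and 21 above the wild type and D95N 42 below it. Its log2 fold change was 0.06 with SE 0.04 (adjusted p = 0.321 by edgeR). Hsp90aa1, the inducible form, gave 0.07 with SE 0.05 (adjusted p = 0.282 by edgeR), and 47.5% of its 50-base words occur in other genes. Hsp90aa1 passed as higher with the GC and length correction (0.12; edgeR, adjusted p = 0.0192) and without the 2 shallowest libraries (0.12; edgeR, adjusted p = 0.0409). Ahsa1, which activates the Hsp90 ATPase, Fkbp4, an immunophilin of steroid receptor complexes, and Chordc1, an Hsp90-binding HSF1 target, had log2 fold changes of -0.03, -0.04 and 0.01. Fkbp4 passed as lower with the GC and length correction (-0.09; edgeR, adjusted p = 0.0479). Chordc1 was 46.7 CPM in D95N 28 and 71.1 CPM in D95N 44, beyond the wild-type range of 57.1 to 64.3 CPM on both sides.

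Neither heat shock factor passed. Hsf1 was 22.96 to 28.6 CPM in wild type and 21.5 to 29.0 CPM in D95N, lowest in D95N 4 (log2 fold change -0.01, SE 0.06, adjusted p = 0.931 by edgeR). Hsf2 was 24.3 to 25.4 CPM in wild type and 24.3 to 31.2 CPM in D95N, where D95N 44 was highest, with a log2 fold change of 0.10 with SE 0.05 (adjusted p = 0.151 by edgeR). With the GC and length correction Hsf2 did pass, at 0.17 (edgeR, adjusted p = 0.0174). As background, HSF1 is controlled largely by trimerization and phosphorylation, which counts do not show.

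None of the 8 TRiC subunits passed (edgeR; 1 had an unadjusted p under 0.05, and DESeq2 called 1), and their log2 fold changes ran from -0.03 to 0.08. Cct6a came closest, at 111 to 121 CPM in wild type and 117.5 to 130.3 CPM in D95N, with all 7 D95N values above the wild-type median. Its log2 fold change was 0.08 with SE 0.03 (adjusted p = 0.0506 by edgeR; DESeq2, adjusted p = 0.0202), and it passed without D95N 28, 41 or 42 or WT 8 (edgeR, adjusted p = 0.0312 to 0.0446). Cct8 gave 0.07 with SE 0.03 (adjusted p = 0.141 by edgeR), and with the GC and length correction both passed, at 0.13 each. Tcp1, Cct2, Cct4, Cct5 and Cct7 had log2 fold changes from -0.03 to 0.00 and Cct3 0.01. The 95% intervals of these 6 reached from -0.09 to 0.07. In wild type all 8 subunits were lowest in WT 32. Cct6a and Tcp1 overlap neighbours on the opposite strand over 452 and 712 exonic bases.

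**Figure D3:**
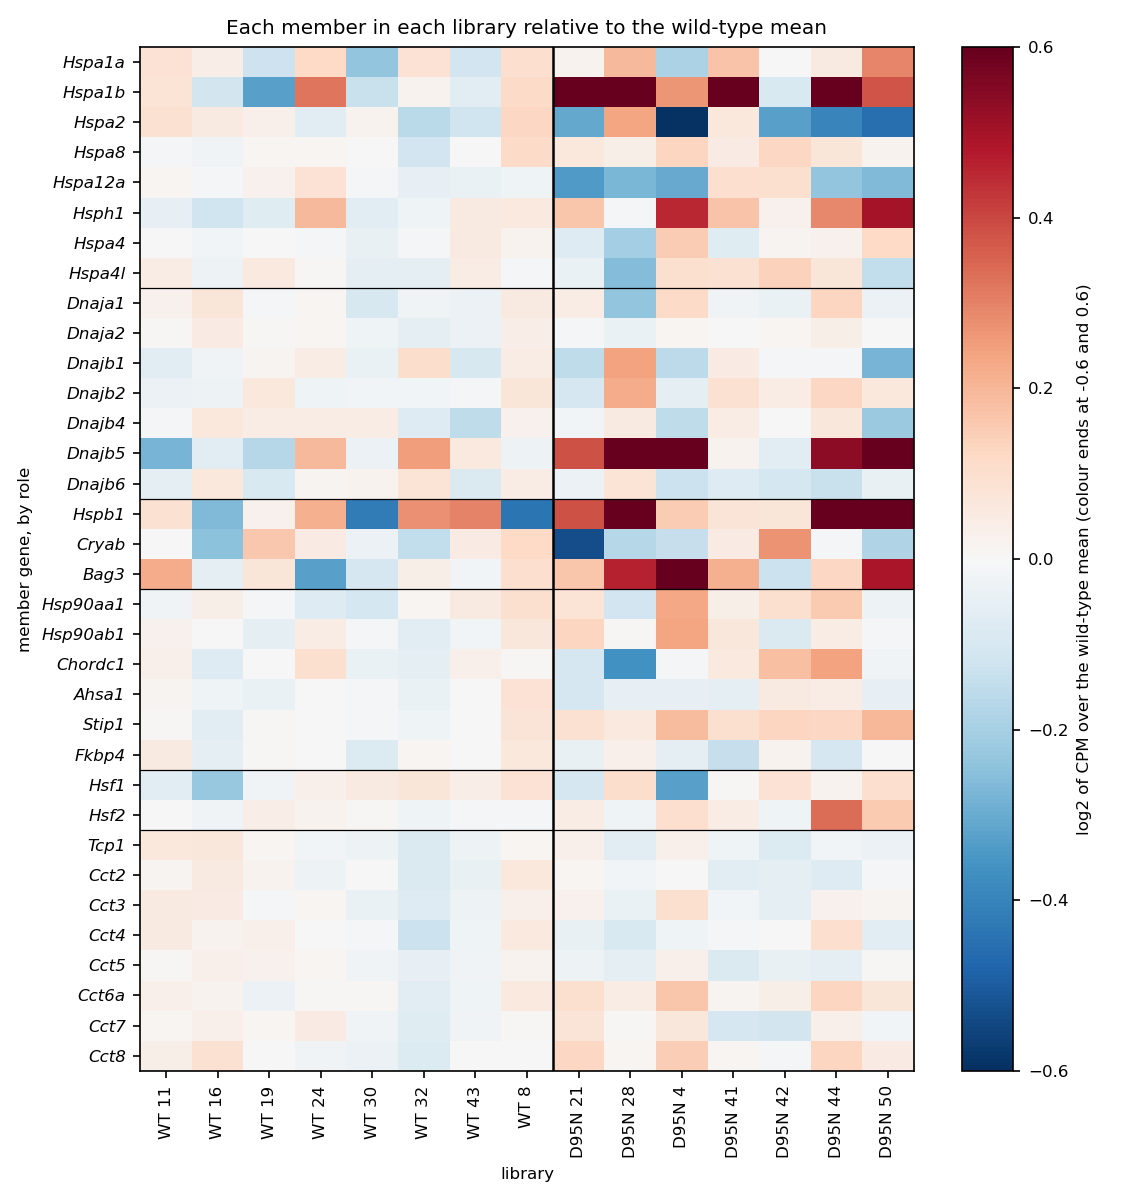
Log2 of CPM over the wild-type mean for each member (rows, by role) in each library (columns, wild type left of the line). Strong colours sit in D95N columns of Hspa1b, Hspa2, Hsph1, Dnajb5, Hspb1, Bag3 and, in D95N 21, Cryab, Hspb1 also varies among wild-type libraries, and the chaperonin rows at the bottom stay pale in all 15 libraries.

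The members had larger SDs among D95N than among wild-type libraries, a difference that was not tested. On the log2 scale the median SD over members was 0.0522 among wild-type and 0.113 among D95N libraries, and it was larger in D95N for 30 of 34 members (88.2%). This was shared by the genes at large, since 83% of all 14989 had a larger SD in D95N, with median SDs of 0.0878 and 0.149. Single D95N libraries lay above the wild-type range for 7 to 16 members and below it for 5 to 9. The same counts were not made over all genes, so they cannot be called particular to these members. D95N 4 and D95N 44 were above in 16 and 15 members and D95N 41 and D95N 42 in 7 each. Of the 6 called members D95N 50 exceeded the wild type in 6, D95N 44 in 5, D95N 21, 28 and 4 in 4, D95N 41 in 2 and D95N 42 in 1. Summed over the 34 members, CPM was 5204 to 5562 in wild type and 5321 to 5880 in D95N.

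Inducible members were set against the Hspa1a and Hspa1b sum within each genotype. With Hsph1, Dnajb1, Hspb1, Bag3, Chordc1 and Cryab, 12 relations were computed on log2 CPM, and none passed (exact permutation tests, adjusted p at least 0.795 for Pearson's r and 0.606 for Spearman's rho). The highest was Hsph1 in wild type (r = 0.66, exact p = 0.0725; rho = 0.71, exact p = 0.0576; n = 8), and r was 0.26 without the 2 libraries farthest from the median sum. In D95N the same pair gave r = -0.19 (exact p = 0.684) and rho = -0.43 (exact p = 0.354; n = 7), and r was -0.94 without the 2 farthest. With 7 or 8 libraries only strong relations could be seen.

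Levels per kilobase of merged exon covered a wide range. Merged exons include rare transcripts, which lowers the value of genes with long annotated forms. In wild type Hsp90ab1 led at 472 ± 14.9 CPM per kb (SD, n = 8), followed by Stip1 at 82.2 ± 2.26, Dnaja2 at 73.3 ± 1.77 and Cct8 at 68.8 ± 2.44 CPM per kb. Those 4 neighbours are each separated by more than their SDs among animals, which do not cover error in the exon length or in shared reads. At the low end Dnajb6 (1.96 ± 0.0922), Hspa1b (1.945 ± 0.264) and Hspa1a (1.85 ± 0.167 CPM per kb) did not differ beyond their SDs, and Hspb1 (1.06 ± 0.214 CPM per kb) was the lowest member. Words shared with other genes make up 60.3% of Hspa1a, 62.3% of Hspa1b, 48.8% of Hspb1 and 17.7% of Dnajb6, and the handling of such reads is not stated, so the order of these 4 is uncertain. In D95N Hspa1b reached 2.90 ± 0.683 CPM per kb, still far below the constitutive Hspa8 at 49.3 ± 1.46 CPM per kb. TRiC subunits, which sit in the ring in equal number, ran from 18.3 (Cct3) to 68.8 (Cct8) CPM per kb in wild type. Their merged exons differ, at 6370 bases for Cct3 and 3088 for Cct8, and the part of this in the spread was not tested.

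**Figure D4:**
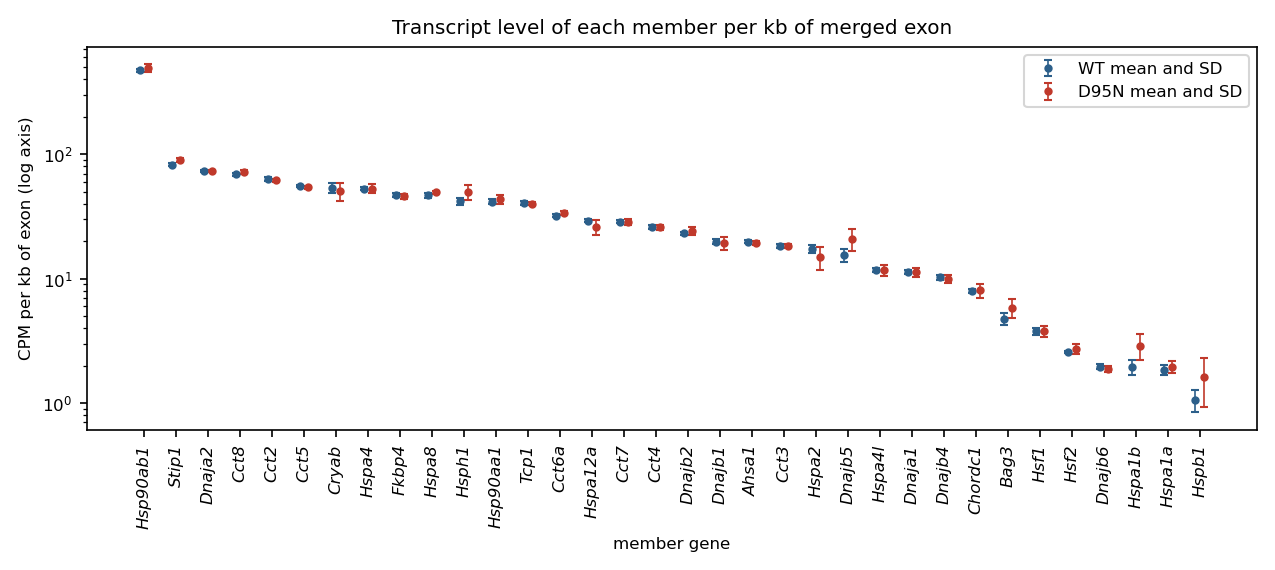
Mean and SD of CPM per kb of merged exon (log axis) in wild type (n = 8) and D95N (n = 7), members ordered by the wild-type mean. Hsp90ab1 stands alone at the top, and Hspa1b, Hspa1a and Hspb1 lie at the bottom right with Hspa1b and Hspb1 higher in D95N.

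Heat shock units were searched in all RefSeq promoter windows (250 bases before to 50 after a start, GRCm38.p6), where 28 of 34 members have an entry. Not matched were Hspa8, Cryab, Hsp90aa1, Hsp90ab1, Hsf1 and Cct4. Each pair reads the same on the other strand, and a run of 3 units (GAA and TTC in turn, each 2 bases apart, on either strand) contains pairs. A pair was found for 13 of 28 members (46.4%) and for 17.0% of all 27025 genes, and in 37.5% of 40 member windows against 15.1% of all 32851 windows. A run of 3 units was found for Hsph1, Dnajb6 and Chordc1, 10.7% of members against 0.66% of all genes. Of the 6 members called higher 4 had a pair, and of the 22 other members with a window 9 had one. A match is a description of letters and not a bound site. A missing pair does not set a gene apart from HSF1 targets, since Dnajb1, a standard target, had none in its 2 windows. In Hsph1 the run of 3 units lies after the RefSeq start and is not printed. A separate pair lies 33 bases before that start, within chr5:149636351-149636380 (minus strand), where 26 of the 30 bases below fall in a GENCODE exon of Hsph1.
Hsph1: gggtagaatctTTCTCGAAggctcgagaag

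Other genes of the cytosolic chaperone network were taken from a list of 54, of which 53 had a row and were tested. Of these 14 rose and 1 fell, 28.3% against the 26.8% of all genes. The smallest p was that of Bag1, an Hsp70 nucleotide exchange factor, which averaged 107 CPM in wild type (SD 2.96, n = 8) and 128 CPM in D95N (SD 11.7, n = 7), with all 7 D95N libraries above the wild type (log2 fold change 0.26, SE 0.05, adjusted p = 0.000974 by edgeR). Ier5, an activator of HSF1 that is also an immediate early gene, rose 1.74-fold (edgeR, adjusted p = 0.00179), with 6 of 7 D95N libraries above the wild type. Hspb7, a small heat shock protein best known from heart, rose 4.27-fold from a mean of 0.34 CPM (edgeR, adjusted p = 0.00226), with 6 D95N libraries above and 1 below the wild type. Naca, which meets nascent chains at the ribosome, fell by 0.13 on the log2 scale (edgeR, adjusted p = 0.0377).

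Chaperones of other compartments are set beside these without a test between lists. In the endoplasmic reticulum 2 of 20 rose and none fell, Hyou1 at 1.134-fold and Sdf2l1 at 1.325-fold. Of 17 mitochondrial chaperones and proteases Lonp1 rose (1.105-fold) and Dnajc19 fell (0.80 of the wild type). Of 9 prefoldin and prefoldin-like subunits, which deliver actin and tubulin to TRiC or resemble those that do, 4 rose and none fell, led by Uri1 at 1.43-fold (log2 fold change 0.52, SE 0.04, adjusted p = 7.03e-06 by edgeR), then Pfdn2 at 1.125-fold and Pfdn1 at 1.118-fold. Over all genes 15.2% rose and 26.8% passed in either direction, against 10% in the endoplasmic reticulum list, 11.8% in the mitochondrial and 44.4% in the prefoldin list.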

How the data were processed

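RNA-seq was deposited as 1 table per sample of raw read counts per Ensembl gene, made by the authors with STAR and featureCounts on GRCm38 per the submitters' processing notes. For tool versions, annotation, strand setting and reads matching several places: not given in the sources used here. Of 22524 identifiers 22291 matched GENCODE M21, which gave symbols, coordinates, exon lengths and transcript sequences. edgeR 4.0.16 in R 4.3.3 fitted all 15 libraries with TMM factors, the default expression filter and genotype as the 1 term. P-values came from the quasi-likelihood test, Benjamini-Hochberg adjusted over 14989 genes, with 0.05 as the threshold. The SE was taken as log2 fold change over root F, and 95% intervals use the t scale of that test. CPM were scaled with TMM factors, and 0.5 was added before log2. Alternatives used DESeq2 1.42.0, limma 3.58.1 and other settings. Permutation tests of the Hspa1a and Hspa1b sum and share used R, and those of the correlations Python 3.11.15. The fitting code was tested on simulated data. No label gives a batch. The members and lists were chosen with earlier results of these data known. All 34 members are named, and of other lists up to 3 called genes per direction by smallest p. Markers named beside a member, such as Gfap, were chosen after their values were seen.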

Additional observations from a re-analysis of the deposited data

Results flagged for a closer look

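In 3 of 70 groups of member values the extreme library was far apart, where chance gives about 1 in 20. Hspb1 was 3.10 CPM in D95N 50, against 1.15 to 1.95 CPM in the other 6 D95N libraries. Ahsa1 was 92.1 CPM in WT 8, against 84.3 to 87.8 CPM in the other wild-type libraries. Cct4 was 100.4 CPM in WT 32, against 108 to 114 CPM in the other wild-type libraries.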

How the results depend on the processing

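Of 952 member values under the alternatives, 807 kept their direction and their side of the threshold, 37 lost and 25 gained a call, and 83 changed sign, none of the latter a called member. The alternatives without WT 19 and 32, without the 2 shallowest libraries and with thinned counts, and the copy share without each library, were chosen after seeing the data. Members called higher numbered 10 with the GC and length correction, 0 with blood and meningeal scores and 3 without WT 19 and 32, against 6. Members called lower numbered 1 with upper-quartile factors, limma-voom, library totals, the oligodendrocyte, choroid plexus and striatum scores or without the 2 shallowest libraries, 2 with the GC and length correction, and 0 to 2 leaving out 1 library. Related genes called higher numbered 0 with blood and meningeal scores and 9 without WT 19 and 32. Related genes called lower numbered 2 with upper-quartile factors, 3 under the GC and length correction or the oligodendrocyte scores, 4 with library totals, 0 without the low-count filter, with the blood scores or without the 2 shallowest libraries, and 0 to 1 leaving out 1 library. Library totals moved the median of all genes from -0.008 to -0.042.

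Log2 fold changes that changed sign, all of members without a call, were as follows. With the GC and length correction they were Hspa1a -0.0153, Hspa4 0.0366, Dnaja1 0.0549, Dnajb2 -0.0041, Dnajb4 0.0274, Tcp1 0.0352, Cct4 0.0231 and Cct7 0.0063. With blood and meningeal scores they were Hspa12a 0.0158, Hspa4 0.0905, Dnaja1 0.0337, Cryab 0.1915, Hsp90ab1 -0.035, Ahsa1 0.0153, Hsf1 0.1065, Cct3 -0.0452 and Cct8 -0.0097. With RLE factors they were Hspa4 0.0009 and Dnaja1 0.0004. With DESeq2 they were Hspa4 0.0009 and Dnaja1 0.0007. Without the 2 shallowest libraries they were Hspa4 0.0117, Dnaja1 0.0464 and Cct4 0.0057. After thinning to the lowest total they were Hspa4 0.0055 and Chordc1 -0.0053. With upper-quartile factors they were Hspa4l -0.0224, Dnaja2 -0.0231, Chordc1 -0.013 and Cct3 -0.0153. With scaling by library totals they were Hspa4l -0.0332, Dnaja2 -0.0336, Chordc1 -0.0236 and Cct3 -0.0264. With a filter at a mean of 1 CPM they were Hspa4l -0.001 and Dnaja2 -0.0011. With limma-voom Hspa4l was -0.0043. With oligodendrocyte, choroid plexus and striatum scores they were Hspa4l -0.0327, Dnaja2 -0.0225, Chordc1 -0.0806 and Cct7 0.0106. Without WT 19 and 32 they were Dnaja2 -0.0071, Hsf1 0.0006 and Cct3 -0.0045. Leaving out 1 library gave ranges across 0 for Hspa4 -0.0273 to 0.0302, Hspa4l -0.0229 to 0.0397, Dnaja1 -0.0245 to 0.0337, Dnaja2 -0.0067 to 0.0091, Dnajb1 -0.0868 to 0.0002, Dnajb4 -0.0462 to 0.0015, Chordc1 -0.0332 to 0.0631, Hsf1 -0.0377 to 0.0392, Cct3 -0.0055 to 0.0203 and Cct7 -0.016 to 0.0136. The cause of these changes was not tested. No paired analysis was possible because the labels give no litter and the groups share no animal number. Hspb1 had 25 to 72 reads per library; its call held after thinning to the lowest total and was lost without D95N 50.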
